A study of Lycium barbarum and Lycium ruthenicum with 30 samples.

Results

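The 200 unigenes described here rose from early to late fruit development in both Lycium barbarum (LB), whose fruit is red, and Lycium ruthenicum (LR), whose fruit is black, and then held their level to ripeness. A unigene is a cluster of assembled transcripts that stands for a gene, and its level is given as FPKM, a read count divided by transcript length and by the mapped fragments of the library. The members were chosen from 326276 deposited unigenes on log2(FPKM + 0.5). The rise of a species is its mean over stages S3 to S5 minus its mean over S1 and S2, and a member had to have an FPKM of 5 or more in all 18 libraries of S3 to S5 (the floor). It also had to differ by less than 1 on the log2 scale between S3 and S5 in each species (the hold). The floor was met by 11615 unigenes and floor and hold by 6989, and of these the 200 with the highest smaller rise of both species were taken. The rises, the hold and every value made from them therefore describe the choice and are given with no test.

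Fruit was collected at 5 stages, young (S1), green (S2), colouring (S3), immature (S4) and mature (S5), with 3 trees of a species sampled at each stage, which makes 30 libraries. The LR shrubs grew wild in Ejina and the LB shrubs were watered plants of a nursery in Yinchuan. The study describes ripening periods that differ slightly between the species and vary, and it divided them only roughly into stages. A difference between LR and LB can be one of species, of place, of watering or of how the stages match. These cannot be told apart. Both species were measured on the same assembled unigenes, from uniquely located reads. How well the reads of each species matched a unigene was not tested, so a difference in level need not be one of expression. A library name such as LB4-3 gives the species, the stage and the replicate. Columns of the deposited table are coded R and B, which stand here for LB and LR by the key of the study, whereas the sample titles in GEO assign each code to the other species. For 7 unigenes whose FPKM values the study prints by species, 210 of 210 values equalled the deposited ones by that key, within 0.0051, and 6 did by the titles. The step that 1 read is worth in low FPKM values gave the relative depth of the libraries, which ran from 53.1% to 89.5% of the deepest library in LB (median 66.5%) and from 49.0% in LR up to the deepest library itself, LR3-3 (LR median 64.6%).

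Fleshy fruit changes its gene expression as it stops growing and ripens: photosynthesis genes are shut down, while genes for the loosening of cell walls, for the breakdown of stored and bound sugars and for pigments are switched on. Galactose metabolism contains enzymes that release sugars from raffinose-type oligosaccharides and from wall polymers. Beta-glucosidases split glucose from glycosides, the storage form of many plant phenolics and hormones. Of the 200 members, 194 are in none of the annotation lists used here, which name 604 unigenes, and these 194 are given by their identifier only, with no role. No file pairs the unigenes with their sequences, so none is printed. The prefix TRINITY_ of every identifier is left out below, and unigenes whose names share a DN number come from 1 component of the assembly, which can hold copies or fragments of 1 gene.

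In LB the median member had a mean of 17.4 FPKM at S1, 51.4 at S2, 79.7 at S3, 101.8 at S4 and 95.3 at S5. The same medians of LR were 16.1, 18.5, 39.8, 39.8 and 46.4 FPKM. In the deposited FPKM the members thus started from like medians in both species. By S2 the LB median had moved away from its S1 value while the LR median was close to it. The likeness at S1 depends on the scaling of libraries. Factors that bring unigenes found in all 30 libraries to a common level were 1.41 to 1.52 at S1 in LB and 0.86 to 1.05 in LR. In RNA of whole fruit, a change in the share of a cell type and a change within its cells cannot be told apart. Together the members took 0.375% ± 0.025 (SD, n = 3) of all FPKM in LB at S1 and 2.99% ± 0.062 at S5. In LR their share was 0.330% ± 0.049 at S1 and 1.47% ± 0.283 at S5.

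**Figure D1:**
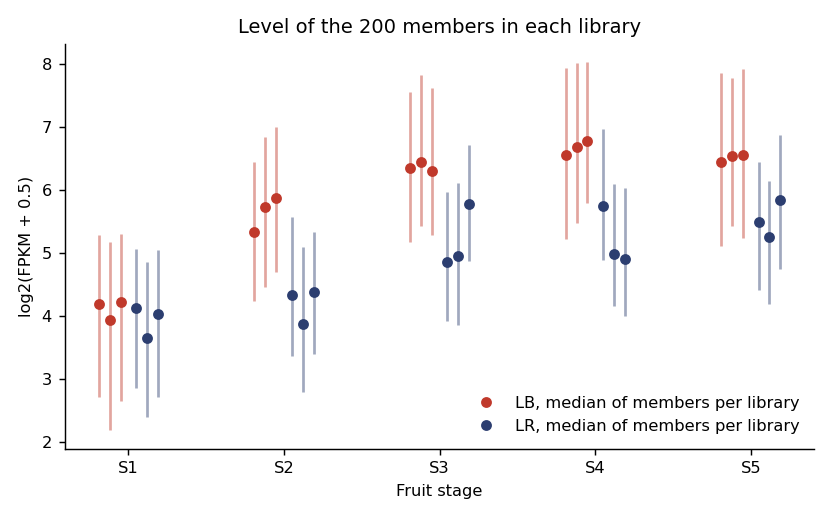
Level of the 200 members in each of the 30 libraries, as log2(FPKM + 0.5) by fruit stage, LB in red and LR in blue, with a point for the median of the members and a line from their lower to their upper quartile. The LB medians step up from S1 to S2 and again to S3, the LR medians step up from S2 to S3, and LR3-3 and LR4-1 lie above the other libraries of their groups.

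The libraries of a group did not always lie together. Within LR, LR3-3 had a median of 54.4 FPKM over the members, against 28.6 in LR3-1 and 30.4 in LR3-2. LR4-1 had a median of 53.2 FPKM, against 31.1 in LR4-2 and 29.5 in LR4-3. LR3-3 was the highest of its 3 libraries in 167 of the 200 members and LR4-1 in 168. Beside this, 28 very abundant unigenes of LR, each at under 1% of its LR mean in LB, took 52.8% ± 14.3 (SD, n = 3) of all LR FPKM at S3 and 57.5% ± 11.8 at S4, but 32.6% to 33.8% at the other stages. The median-of-ratios factors, which scale libraries to a common level of unigenes found in all 30, were 0.49, 0.57 and 0.93 in the libraries of LR S3 and 0.75, 0.57 and 0.41 in those of LR S4. In LB, LB4-3 lay 2-fold or more above both other libraries in 41 members and 2-fold or more below both in 15, and LB5-2 did so in 27 and 20. The part of these libraries in the choice of members is seen by repeating the rule: 142 of the 200 were chosen again without LR3-3 and LR4-1, 174 without LB4-3 and LB5-2, and 99 after median-of-ratios scaling.

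The rise had a median of 1.65 on the log2 scale in LB (range 0.57 to 5.85) and of 1.11 in LR (0.56 to 5.78), against -0.08 and -0.14 over all 111217 unigenes tested. It was 1 or more in LB for 161 members, in LR for 114 and in both for 93, and the larger rise was that of LB in 140 members. After median-of-ratios scaling the median rise was 1.82 in LB and 1.56 in LR, with 0 over all unigenes, and 199 members rose by 1 or more in LR. The last member, DN94654_c4_g1, had rises of 2.40 in LB and 0.56 in LR, and the first unigene outside, DN83456_c0_g2, had 1.66 and 0.55. The LR libraries of DN94654_c4_g1 were at 47.3, 26.5 and 42.3 FPKM at S2 and at 49.6, 21.5 and 11.8 FPKM at S4, so early and late libraries overlapped at the edge of the rule.

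**Figure D2:**
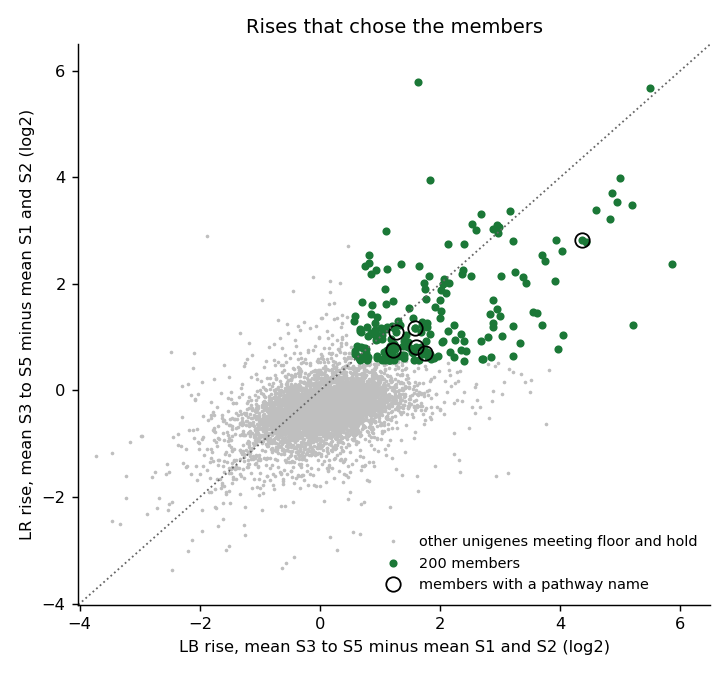
Rise of LR against rise of LB on the log2 scale for the 6989 unigenes that met floor and hold, the 200 members in green and the 6 members with a pathway name circled. The members fill the corner where both rises are above 0.55, and 140 of them lie below the dotted line of equal rises.

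The data go against one part of the name under which these unigenes were proposed, a rise from S3. In LB the step from S1 to S2 was larger than the step from S2 to S3 in 138 of the 200 members, with medians of 1.30 and 0.89 on the log2 scale. In LR the step from S2 to S3 was the larger in 163 members, with medians of 0.31 from S1 to S2 and 0.89 from S2 to S3. The combination of an S2 step in LB with an S3 step in LR was met by 114 members, and 49 had their larger step from S2 to S3 in both species. In LB all 3 libraries of S2 lay above all 3 of S1 for 148 members, and in LR for 35. The members are therefore called unigenes with a late minus early rise here. The stage with the highest mean in LB was S4 for 93 members and S5 for 71, and in LR it was S4 for 63 and S5 for 110.

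The step from S1 to S2 lies within the early mean and was not used by the rule, so it was tested with limma over all unigenes, with a call at a Benjamini-Hochberg adjusted p under 0.01 and a 2-fold difference. In LB 85 of the 200 members (42.5%) were higher at S2 than at S1 and 1 was lower, while 2.49% of all tested unigenes were called higher and 3.82% lower. Of the 6789 other unigenes that met floor and hold, 74 (1.09%) were called higher. Without DN83179_c0_g2, which was listed at 0 in all LB libraries of S1, the other 84 called members rose by 1.17 to 6.59 on the log2 scale, with a median of 2.72. Among these, DN101853_c3_g3 (6.59) and DN89975_c0_g1 (6.23) were also listed at 0 in some S1 libraries of LB, so the sizes of their steps depend on the offset too. Of the 85, 36 were among the 50 members with the highest smaller rise, against 9 among the last 50. These ranks come from the rises, into which the levels at S1 and S2 enter. The split by rank therefore describes the members and is no test. When the fit was made on the 6 LB libraries of S1 and S2 alone, 4 members were called higher, with 287 unigenes called in all, and of the members named below DN83179_c0_g2 kept its called LB step in that fit.

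In LR 0 of the 200 members were called in either direction at this step, while 0.130% of all tested unigenes were called higher and 0.335% lower. Of the members, 33 had an unadjusted p under 0.05 with limma, the one tool run. The LR step was above 0 in 150 members, and 3 were called higher after median-of-ratios scaling and 5 were called without LR1-1. The difference between the species was tested itself, as the LR step minus the LB step. It was lower in LR for 19 members (9.5%) and higher for 0, against 0.612% and 0.836% of all tested unigenes, and 99 members had an unadjusted p under 0.05. Its median was -1.11 over the members and 0.08 over all unigenes. All 19 had also been called higher at S2 in LB, and their own LR step ran from -1.91 to 1.65, above 0 in 13. When the fit was made on the libraries of S1 and S2 alone, 4 members were called.

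**Figure D3:**
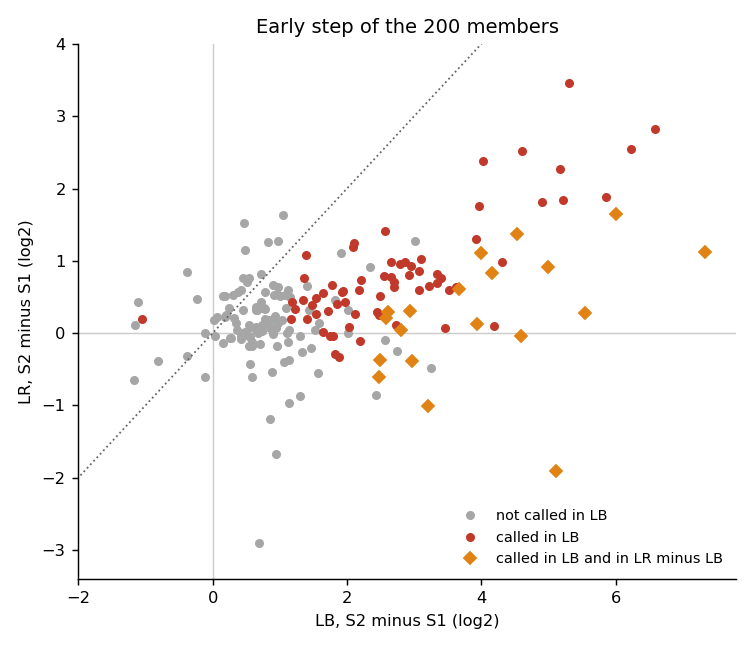
Step from S1 to S2 on the log2 scale in LR against that in LB for the 200 members, grey where the LB step was not called, red where it was, and orange diamonds for the 19 where LR minus LB was called too. Of the points, 190 lie right of 0 and 172 below the dotted line of equal steps. The rightmost point, DN83179_c0_g2, was listed at 0 at S1 in LB, so the offset of 0.5 sets its place.

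The member with the highest smaller rise was DN89975_c0_g1. Its LB libraries were at 0.67, 0 and 0 FPKM at S1, at 42.5, 29.1 and 96.7 at S2, at 205, 288 and 155 at S3, at 201, 271 and 1156 at S4 and at 71.5, 768 and 170 at S5. Its LR libraries were at 1.01, 0 and 0.19 FPKM at S1, at 13.1, 1.71 and 2.98 at S2, at 77.4, 50.6 and 111 at S3, at 242, 186 and 130 at S4 and at 44.95, 44.9 and 186 at S5. It was close to 0 in the young fruit of both species and at 44.9 FPKM or above in every library from S3 on, with LB4-3 and LB5-2 far above the rest of their groups. The LB step to S2 was 6.23 ± 0.79 (SE) on the log2(FPKM + 0.5) scale with a limma adjusted p of 6.5e-06, and the LR step of 2.55 ± 0.79 had an adjusted p of 0.13.

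The next, DN83179_c0_g2, was listed at 0 in all 3 LB libraries of S1, the one member of which this holds for a whole group. It stood at 88.8, 45.5 and 127 FPKM at S2 in LB, at 199, 238 and 218 at S3, at 136, 178 and 1066 at S4 and at 40.1, 449 and 119 at S5. In LR it was at 0.39, 0 and 0 FPKM at S1, at 2.32, 0.28 and 0.55 at S2, at 21.3, 8.08 and 10.05 at S3, at 22.4, 29.1 and 14.2 at S4 and at 7.95, 14.2 and 8.83 at S5. All LB libraries from S2 on lay above all LR libraries. Both the LB step (adjusted p of 1.2e-07 with limma) and the lower step of LR (adjusted p of 0.000481) were called, but their sizes on the log2(FPKM + 0.5) scale depend on the offset and are no fold.

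The largest component among the members was DN101853, with 3 of them at ranks 4, 5 and 6. Its DN101853_c3_g3 had LB libraries at 5.21, 0 and 4.24 FPKM at S1, at 119, 235 and 426 at S2 and between 686 and 1545 from S3 to S5. In LR it was at 31.4, 4.70 and 1.07 FPKM at S1, at 81.8, 31.8 and 34.1 at S2 and between 107 and 438 from S3 to S5. The species overlapped at S1 and had separated at S3 to S5, where every LB library lay above every LR one. Its LB step to S2 was 6.59 ± 0.81 (SE) on the log2 scale (limma adjusted p of 4.4e-06). DN101853_c3_g2 reached a mean of 3338 FPKM at S4 in LB and 993 in LR, and DN101853_c3_g1 a mean of 472 and 72.1. In all, the 200 members came from 184 components, and 15 components held 2 or more members, 31 in all, so that the members are not 200 independent genes.

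The level after the rise spanned a wide range. Over S3 to S5, 13 members had a mean of 1000 FPKM or more in LB and 3 in LR, and 98 and 44 members had 100 FPKM or more. The most abundant in both species was DN65702_c5_g3. In LB it stood at 3017, 2373 and 3384 FPKM at S1, at 7072, 8760 and 7069 at S2 and between 7110 and 18031 in the libraries of S3 to S5. In LR it stood at 3659, 2825 and 2214 FPKM at S1, at 8206, 5247 and 5002 at S2 and between 6697 and 19044 later. As deposited the species overlapped at every stage, and after median-of-ratios scaling LR lay above LB at S1, S4 and S5. The late difference of DN65702_c5_g3, LR minus LB, was -0.11 ± 0.19 (SE) on the log2 scale as deposited (limma adjusted p of 0.64). Its early step was 1.39 ± 0.33 in LB (adjusted p of 0.0053), a call lost when LB1-1, LB1-2 or any 1 of the S2 libraries of LB was left out (adjusted p of 0.013 to 0.036), and 1.08 ± 0.33 in LR (0.11), and the difference of the steps was -0.31 ± 0.46 (0.82).

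DN80255_c0_g1, the next most abundant in LB, stood far apart between the species. Its LB libraries were at 87.0, 195 and 118 FPKM at S1, at 1591, 2980 and 2408 at S2 and between 7864 and 15007 from S3 to S5. Its LR libraries were at 41.0, 15.7 and 56.7 FPKM at S1, at 87.1, 37.3 and 65.9 at S2 and between 157 and 517 from S3 to S5. Both profiles rose and held, at levels that did not overlap at any stage as deposited. After median-of-ratios scaling they overlapped at S1. The early step was 4.15 ± 0.43 (SE) on the log2 scale in LB and 0.84 ± 0.43 in LR, and the lower step of LR was called (limma adjusted p of 0.0018). DN77625_c4_g3, the next most abundant in LR, was at 228 to 632 FPKM at S1 in LR and at 1722 to 3716 at S3 and S4. In LB it started at 1071 to 1310 FPKM at S1, and it was lower in LR early (-1.95 ± 0.35, adjusted p of 5.5e-05) but not called late (-0.38 ± 0.29, adjusted p of 0.26).

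A few members went another way before S3. DN91198_c3_g2 was the 1 member called lower at S2 in LB: its libraries were at 286, 292 and 221 FPKM at S1, at 131, 124 and 127 at S2 and at 284 to 556 from S3 to S5. In LR it was at 76.0, 68.2 and 99.8 FPKM at S1 and at 99.9, 99.0 and 77.5 at S2, which overlap. The LB step was -1.05 ± 0.23 (SE) on the log2 scale (limma adjusted p of 0.0031), close to the 2-fold limit, and its call was lost after median-of-ratios scaling (-0.96, adjusted p of 0.0041) and without LB1-1, LB1-2, LB2-2 or LB2-3 (adjusted p of 0.014 to 0.021). In LR the step was 0.19 ± 0.23 (adjusted p of 1). The difference of the steps was not called (adjusted p of 0.036), but was without LR3-3 and LR4-1 (0.0071). DN89418_c0_g3 had the largest difference of steps, with LB at 13.5, 0 and 0.22 FPKM at S1 and 41.2, 34.5 and 141 at S2. Its LR libraries were at 17.5, 23.8 and 34.4 FPKM at S1 and at 5.11, 14.7 and 2.92 at S2, where all 3 lay below those of S1. The difference of the steps was -7.01 ± 1.47 on the log2 scale (adjusted p of 0.0066). Its call was lost in 11 of 38 alternatives (adjusted p of 0.011 to 0.050), among them those without LB1-2, LB1-3, LB2-3, LR2-1, LR2-3 or any 1 of the S1 libraries of LR, and the LR step alone, -1.91 ± 1.04, was not called (adjusted p of 0.62).

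Of the members, 6 carry a pathway or enzyme name in the lists of the study, 3 of them in galactose metabolism. These lists were chosen in the study on these libraries, so they are no independent evidence of a direction. DN70161_c1_g1 (galactose metabolism) was at 5.51, 4.57 and 5.32 FPKM at S1 in LB, at 25.4, 32.8 and 50.4 at S2, at 275, 240 and 219 at S3, at 327, 465 and 394 at S4 and at 304, 197 and 268 at S5. In LR it was at 10.6, 5.59 and 17.7 FPKM at S1, at 25.4, 9.87 and 22.2 at S2, at 62.1, 64.8 and 94.3 at S3, at 135, 67.4 and 84.8 at S4 and at 110, 160 and 157 at S5. The LB libraries of S1 to S3 did not overlap from stage to stage, and from S3 on every LB library lay above every LR library. The LB step to S2 was called (2.65 ± 0.36 (SE) on the log2 scale, limma adjusted p of 1.6e-05), and so was the lower late level of LR (-1.56 ± 0.21, adjusted p of 6.1e-07). After median-of-ratios scaling the late difference was -0.75 ± 0.22, under the 2-fold limit, and the species overlapped at S5.

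DN96802_c4_g2 (galactose metabolism) rose early in LB, from 6.03, 4.61 and 6.16 FPKM at S1 to 19.96, 24.6 and 32.9 at S2, and was at 26.5 to 57.8 from S3 to S5. In LR it went from 8.64, 5.64 and 5.68 FPKM at S1 to 16.1, 14.0 and 16.8 at S2, and was at 18.9 to 45.9 at S3 and S4 and at 19.8, 13.1 and 18.3 at S5. The libraries of S1 and S2 did not overlap in either species, and the LB step was called (2.09 ± 0.31 (SE) on the log2 scale, limma adjusted p of 4.2e-05) while the LR step was not (1.19 ± 0.31, adjusted p of 0.055) but became so after median-of-ratios scaling (1.25, adjusted p of 0.0086). The difference of the steps was -0.90 ± 0.44 (adjusted p of 0.34). DN73394_c1_g1, listed in galactose metabolism and in amino sugar and nucleotide sugar metabolism, which makes the sugar donors of cell wall polymers, overlapped between the species at S1 to S4 and lay higher in LB at S5 as deposited. After median-of-ratios scaling it lay higher in LR at S1, S3 and S4 and overlapped at S2 and S5. In LB it was at 24.6 to 28.0 FPKM at S1, 48.9 to 62.2 at S2 and 65.8 to 164 later, and in LR at 24.7 to 42.1, 31.6 to 59.1 and 63.4 to 124. None of the 7 comparisons called it, although its LB step to S2 was called without LB4-3 (1.10, adjusted p of 0.0048), and its late difference was -0.14 ± 0.17 (adjusted p of 0.48).

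**Figure D4:**
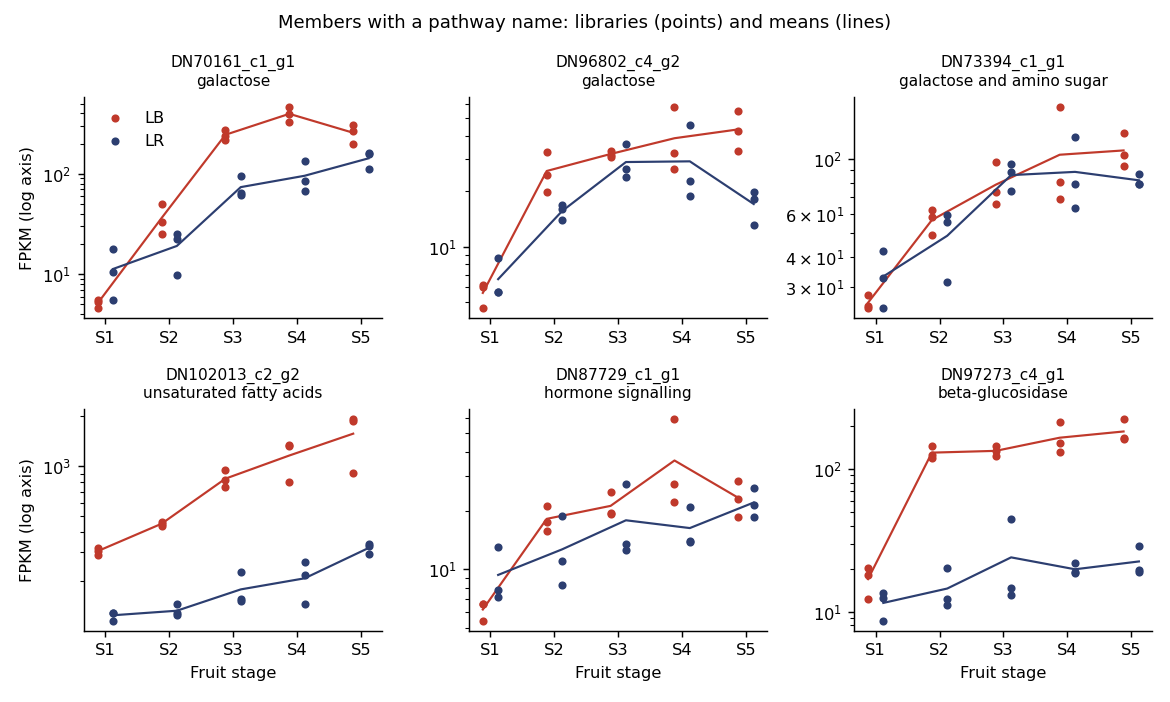
FPKM on a log axis by fruit stage for the 6 members with a pathway name, LB in red and LR in blue, with a point per library and a line through the stage means. DN97273_c4_g1 steps up from S1 to S2 in LB, and in LR it has a smaller rise, with libraries at 8.64 to 44.3 FPKM. The galactose members rise in both species, and DN96802_c4_g2 falls back at S5 in LR.

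DN97273_c4_g1, named as a beta-glucosidase, was at S2 in LB within the range of its S3 libraries or close to it. Its LB libraries were at 20.3, 12.3 and 18.0 FPKM at S1, at 125, 145 and 120 at S2, and at 124 to 224 from S3 to S5. Its LR libraries were at 12.5, 8.64 and 13.4 FPKM at S1, at 11.2, 12.3 and 20.1 at S2, at 13.0, 14.7 and 44.3 at S3, at 18.6, 18.9 and 22.0 at S4 and at 19.6, 18.8 and 29.0 at S5. In LR the S3 value rests on LR3-3, and the libraries of S2 and S3 overlapped. The LB step was 2.93 ± 0.33 (SE) on the log2 scale (limma adjusted p of 1.4e-06), the LR step 0.30 ± 0.33 (adjusted p of 1), and the difference of the steps was called (-2.63 ± 0.47, adjusted p of 0.0016).

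DN102013_c2_g2 is listed in the biosynthesis of unsaturated fatty acids, the desaturation and elongation of membrane and storage lipids. It was at 288 to 320 FPKM at S1 in LB, 435 to 461 at S2, 748 to 947 at S3, 798 to 1346 at S4 and 913 to 1930 at S5. In LR it was at 115 to 129 FPKM at S1, 125 to 145 at S2, 152 to 227 at S3, 146 to 262 at S4 and 293 to 335 at S5. Every LB library lay above every LR library of its stage, and the lower level of LR was called early (-1.52 ± 0.18 (SE) on the log2 scale, limma adjusted p of 1.4e-07) and late (-2.32 ± 0.15, adjusted p of 1.4e-12). After median-of-ratios scaling the early difference was -0.95 ± 0.16, under the 2-fold limit. DN87729_c1_g1, listed in plant hormone signal transduction, the relay from hormone receptors to their target genes, was at 5.42 to 6.58 FPKM at S1 in LB and at 15.8 to 21.1 at S2, a called step (1.47 ± 0.35, adjusted p of 0.0056) that lost its call when any 1 of these 6 libraries was left out (adjusted p of 0.012 to 0.033). Its LR libraries overlapped, at 7.14 to 13.1 FPKM at S1 and 8.23 to 18.7 at S2 (0.39 ± 0.35, adjusted p of 0.92). Neither its early nor its late level was called between the species.

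The other galactose unigenes show what the hold leaves out. Of the 18 unigenes of the list that could be read, 12 met the floor, 11 rose by 1 or more in both species and 3 were members, with median rises of 1.75 in LB and 2.63 in LR over the 18. Of all 326276 deposited unigenes 11615 met the floor, and the median rises of all tested ones were -0.08 and -0.14. The list was chosen in the study from genes that differed between stages of LR, on these libraries. Its rises are therefore no independent evidence and do not compare the species. The highest of the 18, DN94597_c1_g1, went in LB through stage means of 3.49, 173, 2077, 1901 and 961 FPKM from S1 to S5 and in LR through 11.5, 11.0, 421, 843 and 1783 FPKM. It fell back at S5 in LB and was still rising in LR, and so missed the hold in both. Of the 15 that were no members, 6 were called higher at S2 in LB and 0 in LR, and 2 had a lower step in LR than in LB by the test of the difference, while 2.49%, 0.130% and 0.612% of all tested unigenes were so called. The readable lists of photosynthesis and of antenna proteins, the light-collecting proteins of the chloroplast, held no member, and 14 and 18 of their 18 unigenes fell by 1 or more in LB and all 18 of each in LR. The lower quartile of the rise over all tested unigenes was -0.65 in LB and -0.58 in LR. These lists too were chosen in the study on these libraries, from genes that differed between stages of LR, so they do not compare the species.

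Of the phenylpropanoid unigenes, which lead from phenylalanine to lignin and other phenolics, 10 rose by 2 or more in both species without being members. All of them met the floor and missed the hold in LR, where S5 lay 1.78 to 4.04 above S3 on the log2 scale, while S5 minus S3 in LB ran from -0.71 to 0.46. Of these, 7 are beta-glucosidases (DN80120_c0_g1, g2 and g3, DN77905_c2_g2, DN100868_c4_g2 and g3, DN84544_c0_g2) and 3 are coniferyl-aldehyde dehydrogenases (DN91848_c1_g2, g3 and g4), which turn coniferyl aldehyde into ferulic acid. DN80120_c0_g3 had stage means of 21.8, 2747, 9685, 8908 and 6420 FPKM in LB, a plateau from S3, and of 0, 10.9, 669, 1906 and 6108 FPKM in LR, a climb to S5. DN91848_c1_g4 had means of 16.6, 159, 1868, 2356 and 2578 FPKM in LB and of 10.5, 8.42, 26.1, 54.2 and 83.3 FPKM in LR. The LB step to S2 of DN91848_c1_g4 was 3.18 ± 0.32 (SE) on the log2 scale and its LR step -0.31 ± 0.32, and the difference was called (limma adjusted p of 3.8e-05). The 27 beta-glucosidases of the list had 10 called higher and 5 lower at S2 in LB, against 2.49% and 3.82% of all tested unigenes, and 0 in either direction in LR, against 0.130% and 0.335%. The phenylpropanoid list was also chosen in the study on these libraries, so these counts are no independent evidence.

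Of 887 unigenes that met the floor and rose at least as much as the last member, 200 were kept, 361 missed the hold in LR only, 77 in LB only and 249 in both. In LR 455 of those that missed it were higher at S5 than at S3 and 155 were lower, whereas in LB 99 were higher and 227 lower. The split depended on the scaling: after median-of-ratios scaling, chosen here after seeing the data, 300 of the 887 were higher at S5 by 1 or more in LR and 209 lower, 71 and 271 in LB, and 278 met the hold.

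Whether S4 lay on the plateau was tested as S4 minus the mean of S3 and S5. The rule did not use this difference, but the S4 levels enter the rise and the floor. In LB 0 members were called, with 0.0468% of all tested unigenes called higher and 0.0971% lower, and 20 members had an unadjusted p under 0.05 with limma. The median was 0.16 on the log2 scale, above 0 in 141 members, and the values ran from -1.51 to 1.09. In LR 0 members were called too, with 0.0126% called higher and 0.0557% lower, and 10 members had an unadjusted p under 0.05. The LR median was -0.09 as deposited and 0.38 after median-of-ratios scaling, with -0.20 and 0 over all unigenes, so that its direction changed with the scaling. As so few of all tested unigenes were called, 0 calls among the members cannot decide whether S4 lay on the plateau.

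Before the rise, the level over S1 and S2 was lower in LR for 74 members (37.0%) and higher for 13 (6.5%), against 25.7% and 13.9% of all tested unigenes and 21.7% and 2.99% of the 6789 others that met floor and hold. Over S3 to S5 it was lower in LR for 110 members (55.0%) and higher for 7 (3.5%), against 29.4% and 15% of all and 45.8% and 2.09% of the 6789. The medians of LR minus LB were -0.70 early and -1.12 late on the log2 scale, against -0.43 and -0.41 over all tested unigenes. The late difference is the early one plus the difference of the rises, which the rule used, so the step from the early to the late count is not a test. The means of S1 and S2 and of S3 to S5 also enter the rises, and the levels at S3 to S5 the floor. The calls on both levels therefore describe the members. Of the unigenes set beside the members, only the 6789 had to meet the same floor and hold. Of the members, 66 were lower in LR both early and late, 4 were higher in both, 3 were called in opposite directions, 44 were called late only and 14 early only.

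Median-of-ratios scaling moved the median of all unigenes from -0.43 to -0.07 early and from -0.41 to -0.00187 late. With it 40 members were lower and 23 higher in LR early, against 17.6% and 16.7% of all, and 51 were lower and 23 higher late, against 19.7% and 21.0%. The median of the members was then -0.15 early and -0.32 late. The deposited FPKM values and the scaled ones thus give another split of the same members.

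**Figure D5:**
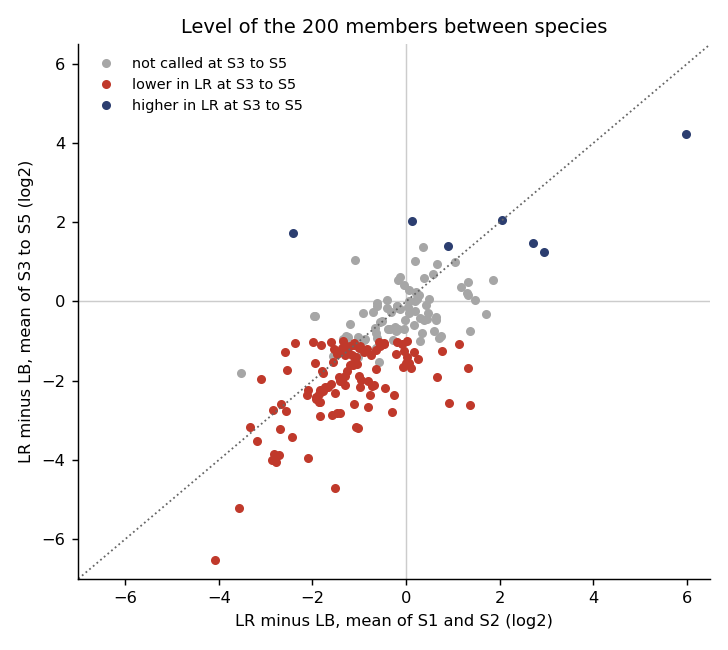
Level of LR minus LB on the log2 scale over S3 to S5 against that over S1 and S2 for the 200 members, red where LR was called lower at S3 to S5 (110), blue where it was called higher (7) and grey where it was not called. Most points lie below 0 on both axes and below the dotted line of equal differences.

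The member that was furthest above in LR was DN96093_c0_g1. Its LB libraries were at 2.05, 0 and 0 FPKM at S1, at 4.21, 4.80 and 6.86 at S2 and at 7.37 to 27.9 from S3 to S5. Its LR libraries were at 106 to 178 FPKM at S1, 110 to 166 at S2 and 127 to 433 from S3 to S5. The species never overlapped, with LR minus LB at 5.98 ± 0.33 (SE) on the log2 scale early and 4.23 ± 0.27 late (limma adjusted p of 1.8e-13 and 1.7e-12). DN80806_c1_g1 was at 0.17 to 1.26 FPKM at S1 in LB and at 13.3 to 19.2 in LR, and was higher in LR early by 2.95 ± 0.31 (adjusted p of 2.1e-08). DN100375_c5_g1 was at 7.29 to 32.0 FPKM from S3 to S5 in LB and at 39.3 to 201 in LR, and was higher in LR late by 2.07 ± 0.25 (adjusted p of 1.3e-07).

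Furthest below in LR was DN87446_c2_g1. Its LB libraries were at 55.6, 115 and 101.5 FPKM at S1, at 397, 397 and 401 at S2, at 2216, 2799 and 1661 at S3, at 2891, 2904 and 812 at S4 and at 2773, 573 and 2476 at S5. Its LR libraries were at 9.51 to 14.0 FPKM at S1, 10 to 10.2 at S2 and 12.2 to 38.6 from S3 to S5. LB4-3 and LB5-2 were the low ones in LB, where they were the high ones for DN89975_c0_g1, yet they still lay above every LR library. LR minus LB was -4.09 ± 0.37 (SE) on the log2 scale early and -6.52 ± 0.30 late (limma adjusted p of 1.2e-09 and 2.5e-15). DN99962_c5_g2 was at 33.2 to 114 FPKM at S1 and S2 in LB and at 3.63 to 6.35 in LR, a difference of -3.33 ± 0.29 (adjusted p of 6.7e-10). Its rises were alike, 1.75 in LB and 1.91 in LR, at levels far apart.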

How the data were processed

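Polyadenylated RNA of fruit was sequenced in 15 libraries per species. The authors trimmed reads with Cutadapt 1.7.1, built transcripts de novo in Trinity and merged them into unigenes with Corset, and they deposited FPKM per unigene, to 2 decimals, from uniquely located clean reads. Bowtie2 is named in the submitters' processing notes, without a version, and no scaling of libraries beyond FPKM is stated for the deposited values. FPKM values are no counts, so no count model was run.

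The rule for members was applied to log2(FPKM + 0.5). Those 111217 unigenes that reached an FPKM of 1 in 3 or more of the 30 libraries entered a limma 3.58.1 fit (R 4.3.3, eBayes with trend and robust) of 10 group means, leaving 20 residual degrees of freedom. Tests were two-sided, with Benjamini-Hochberg adjustment over all of them in each of 7 comparisons, and a call needed an adjusted p under 0.01 and at least a 2-fold difference. On simulated data for LB S2 minus S1 with 20000 unigenes, 25 of 100 changes of 1.5 and 75 of 100 changes of 3 on the log2 scale were recovered. The simulated errors were independent, with no shift of whole libraries, and changes were put only in more abundant unigenes. The recovery in the other comparisons was not simulated. Relative depth was read as the most frequent ratio of low FPKM values to those of LB1-1.

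Members and lists were chosen with earlier results of these data known. Named are members with a name in the lists of the study, phenylpropanoid unigenes that rose by 2 or more in both species without being members, and, of members without a name, those with the highest rise, the greatest abundance, the last rank or the largest called differences with no overlap of libraries. DN101853_c3_g1 and g2, and the galactose unigene DN94597_c1_g1, were named after their values were seen. Only up to 18 unigenes per pathway list could be read. Alternatives were offsets of 0.1 and 1, a filter above 0 only, median-of-ratios scaling over 37527 unigenes, a fit to the groups compared, a replicate block, and libraries left out.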

Additional observations from a re-analysis of the deposited data

Results flagged for a closer look

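The step from S1 to S2 differed between the species for 19 of the 200 members by the test of the difference itself, all with a lower step in LR. Of these, 4 are described above. Among them, DN89418_c0_g3 had an LR minus LB difference of -7.01 on the log2 scale, DN83179_c0_g2 of -6.21, DN80255_c0_g1 of -3.32 and the beta-glucosidase DN97273_c4_g1 of -2.63. DN83179_c0_g2 was listed at 0 in all LB libraries of S1, so its value is set by the offset of 0.5 and is no fold. The size for DN89418_c0_g3 depends on the offset too, as an S1 library of LB was at 0. Its call was lost in 11 of 38 alternatives. The species grew at different places with different watering, and a stage need not be the same point of development in both. These cannot be told apart. Groups of 3 libraries were not tested for single outlying libraries.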

How the results depend on the processing

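The 7 counts of called members kept within 1.5 times of their values under offsets of 0.1 and 1, a filter above 0 only, without LB4-3 and LB5-2, and without LR3-3 and LR4-1 (chosen after seeing the data). Fits to only the groups compared called 4 members in the LB step from S1 to S2 and 4 in the difference of the steps. That fit has fewer libraries to estimate the spread from. Median-of-ratios scaling gave 3 members in the LR step, 74 in the late difference between the species and 99 of the 200 members chosen again, and it left the other counts within 1.5 times. Leaving out each library in turn gave 62 to 91 members in the LB step, 13 to 23 in the difference of the steps, 83 to 90 in the early and 105 to 127 in the late difference between the species, 0 in both tests of S4, and 145 to 198 members chosen again. In the LR step it gave 0 to 5, with 5 without LR1-1 and 1 without LR2-3.

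The replicate numbers are not known to pair libraries: the correlation of deviations from the group means over all tested unigenes had a median of 0.039 within a number (12 of 60 pairs over 0.1) and of -0.021 between numbers, and 22 of the 30 libraries were closest to their own number. A fit with the replicate number as a block within species called 1 member in the LR step, 89 in the LB step and 23 in the difference of the steps. Stability was counted for 55 results: each difference for which a member was named, and all 7 comparisons of the 6 members with a pathway name. Of their 2090 alternative values, 2057 stayed on their side of the threshold, 30 lost their call, 3 gained one and 0 called values reversed. Leaving out 1 library gave 1650 of these values, and it leaves a difference unchanged where the comparison does not use that library. Results not called in the main fit are counted too. The number that stayed is therefore no measure of how stable a call is. Other comparisons of the named members are not in this count. Among these, the LB step of DN65702_c5_g3 lost its call in 6 of 38 alternatives and that of DN87446_c2_g1 in 7. The deposited values hold no read counts, so the counting error of a value is unknown beyond the relative depths given.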
